A study of Mus musculus with 6 samples.

Results

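The nuclear genes for the subunits of oxidative phosphorylation were followed in dorsal root ganglia (DRGs) of mice. They were taken as every gene of the count table whose symbol had the form used for subunits of complex I (Nduf followed by a, b, c, s, or v and a number), complex II (Sdha to Sdhd), complex III (Uqcr), complex IV (Cox4 to Cox8), or complex V (Atp5). This rule gave 82 of 48440 genes, with 36 in complex I, 4 in complex II, 8 in complex III, 17 in complex IV, and 17 in complex V. The rule used names only and no measured value. It also took in Atp5s and Atp5sl, which are named after ATP synthase but are not among its core subunits, and it placed Ndufa4 in complex I by name, although its protein is now counted with complex IV.

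All 6 libraries came from microinjected lumbar (L3/4) DRGs of male mice labelled WT. In 3 libraries the DRGs had received AAV5-Gfp, an adeno-associated virus that carries green fluorescent protein. In the other 3 they had received AAV5-V1 mixed with AAV5-V2 (AAV5-V1+V2), which carry the transcript variants of NIS-lncRNA, a long noncoding RNA that the study raised to look for the genes downstream of it. Virus was present in both groups, so that the groups differed in what it carried and in the preparation, and the promoter of the inserts is not given in the sources used here. The text deposited with the series gives both 5 and 4 weeks after microinjection for the tissue. The labels do not say how many animals went into a library, so p-values measure only the spread between these libraries. Total counts ranged from 32025612 to 34764282 per library, and the level of NIS-lncRNA itself was not analysed here.

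Oxidative phosphorylation takes place in the inner mitochondrial membrane. Complexes I and II pass electrons from NADH and succinate to ubiquinone, complex III passes them to cytochrome c, and complex IV to oxygen, while complex V uses the proton gradient to make ATP. The mitochondrial genome encodes a few subunits in the core of each complex except complex II, and the nuclear genome encodes all others. Sensory neurons, with their very long axons, are known to depend on this supply of ATP. Among the transcription factors known to bind promoters of the nuclear subunits are NRF1 and the GABP factors of the ETS family.

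Comparing AAV5-V1+V2 with AAV5-Gfp shows which genes differ between DRGs given the viruses that carry NIS-lncRNA and DRGs given the virus that carries Gfp. Here the members had small differences, most of them below 0. Of 81 members tested, 6 fell and 0 rose in AAV5-V1+V2. Every adjusted p given here is from the quasi-likelihood test of edgeR, adjusted by Benjamini-Hochberg over all 18593 genes tested, and a gene fell or rose where it was under 0.05. The share of members that fell, 7.41%, was near the 5.27% of all genes tested that were called lower, whereas 10.1% of all genes were called higher. At an unadjusted p under 0.05, 24 members were lower and 1 was higher, against 15.5% and 19.2% of all genes. DESeq2 called 11 members lower (4.86% of all genes) and 1 higher (8.09%), and limma-voom called 2 lower (4.53%) and 0 higher (7.64%). DESeq2 was run without the filter on low counts, with 1488 genes lower and 2477 higher. Its shares, here and below, are over 30615 genes and so are not directly comparable with those over 18593. The calls depended on which libraries were used. When AAV5-Gfp replicate 1, 2, or 3 or AAV5-V1+V2 replicate 2 was left out, edgeR called 0 members lower, with 10, 17, 16, and 24 lower at an unadjusted p under 0.05. The lower calls over all genes then went from 980 to 59 (0.311%), 0 (0%), 0 (0%), and 150 (0.794%). Leaving out AAV5-V1+V2 replicate 1 gave 7 members (5.79% of all genes), and leaving out replicate 3 gave 11 (7.63%).

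The direction was shared more widely than the calls. The log2 fold change was below 0 in 72 of 81 members (88.9%), against 50% of all genes, and the median was -0.14 with a middle range of -0.25 to -0.08, against -0.0003 over all genes. In 35 members every AAV5-V1+V2 library lay below every AAV5-Gfp library, and in 4 every one lay above. Over all genes tested these shares were 22% and 23.4%. These shares describe the list and were given no test, because members of one pathway are not independent replicates. The median was below 0 under every scaling, filter, and test tried and without each library, from -0.31 to -0.08.

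**Figure D1:**
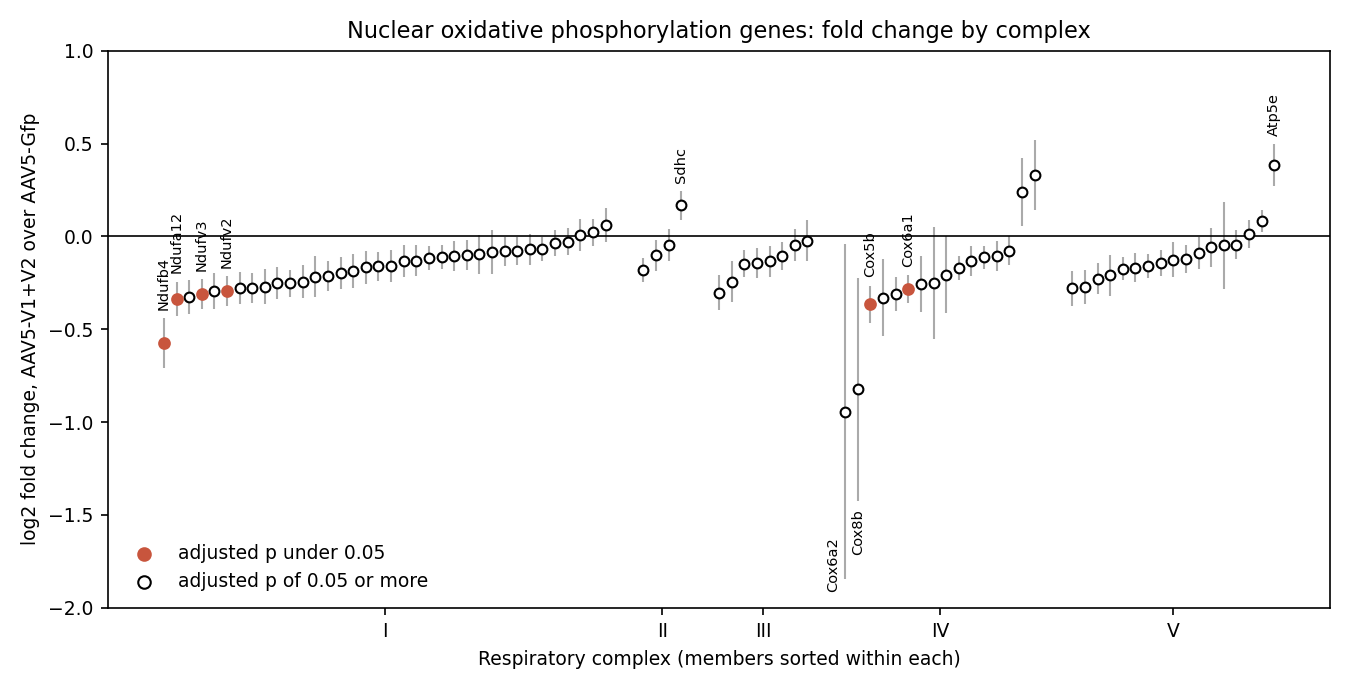
Log2 fold change of each of the 81 members tested (vertical axis, AAV5-V1+V2 over AAV5-Gfp), sorted within complexes I to V (horizontal axis); bars are 1 standard error and filled points have an adjusted p under 0.05. Most points lie between 0 and -0.4, the 6 filled ones are in complexes I and IV, and Cox6a2 and Cox8b have the longest bars.

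The 6 members that fell were Ndufb4, Ndufv3, Ndufa12, and Ndufv2 of complex I and Cox5b and Cox6a1 of complex IV. In GENCODE M21 (GRCm38, the build named in the submitters' processing notes) these protein-coding genes lie on separate stretches of chromosome 16 (Ndufb4, 37647170 to 37654453, minus strand), 17 (Ndufv3, 31520115 to 31531331, plus strand, and Ndufv2, 66078638 to 66101559, minus strand), 10 (Ndufa12, 94198720 to 94221443, plus strand), 1 (Cox5b, 36691449 to 36693681, plus strand), and 5 (Cox6a1, 115345642 to 115348981, minus strand). The 1 member that was higher at an unadjusted p under 0.05 was Atp5e (chromosome 2, 174461072 to 174464105, minus strand).

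The stretches before the start of 3 of these genes are shown because they belong to the called member of complex I that fell most, to the called member of complex IV that fell most, and to the member with the largest positive fold change. They are RefSeq promoter windows (GRCm38.p6) of 250 bases, cut back to the bases that lie before the gene's outermost start in GENCODE M21 and written 5′ to 3′ on the gene's strand. Ndufb4 is at chr16:37654454-37654618 (minus), Cox5b at chr1:36691237-36691448 (plus), and Atp5e at chr2:174464106-174464351 (minus). Capitals mark matches, on either strand, to motifs of factors known from promoters of this kind.

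Ndufb4: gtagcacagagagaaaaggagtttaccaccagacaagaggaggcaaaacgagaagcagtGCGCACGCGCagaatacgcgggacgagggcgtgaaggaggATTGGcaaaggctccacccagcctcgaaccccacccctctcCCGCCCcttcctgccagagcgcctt
Cox5b: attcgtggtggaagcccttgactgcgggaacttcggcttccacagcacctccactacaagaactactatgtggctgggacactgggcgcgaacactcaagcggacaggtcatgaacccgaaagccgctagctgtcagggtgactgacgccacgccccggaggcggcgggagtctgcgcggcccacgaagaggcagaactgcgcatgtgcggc
Atp5e: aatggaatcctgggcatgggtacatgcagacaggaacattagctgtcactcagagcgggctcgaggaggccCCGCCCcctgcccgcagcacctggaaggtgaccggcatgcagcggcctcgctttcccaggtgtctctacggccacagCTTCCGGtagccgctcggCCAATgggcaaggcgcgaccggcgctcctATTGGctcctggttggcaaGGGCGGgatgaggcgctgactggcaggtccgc

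In the shown stretch, Ndufb4 held 1 match to the NRF1 motif (GCGCA, any base, and GCGC; 191 bases before the RefSeq start), an inverted CCAAT box (151 bases before), and an inverted SP1 motif GGGCGG (110 bases before). Its whole window held 2 further NRF1 matches, 79 and 22 bases before the RefSeq start, within the GENCODE gene. The Cox5b window held none of the motifs searched. The Atp5e window held an ETS motif CCGGAAG, an SP1 match on each strand, and a CCAAT box on each strand. Windows were found for 68 members, with 74 windows in all, as some genes have more than 1. Of these, 18.9% held the NRF1 motif, against 3.7% of 32851 windows of all genes, and 16.2% held the ETS motif, against 6.9%. The YY1 motif AAGATGGC was in 2.7% against 1.6%, SP1 in 32.4% against 32.7%, and CCAAT in 43.2% against 33.8%. A match describes letters and is not evidence of binding, and these motifs overlap no other motif searched in the stretches shown.

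Complex I holds more members than any other complex. Of its 36 genes, all tested, 4 fell and 0 rose, 33 had a log2 fold change below 0, and the median was -0.16. DESeq2 called 7 lower and limma-voom 2. With edgeR 11.1% of complex I fell, against 5.27% of all genes (4.53% with limma-voom, and 4.86% of 30615 unfiltered genes with DESeq2). In 19 of 36 (52.8%) every AAV5-V1+V2 library lay below every AAV5-Gfp library, against 22% of all genes.

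Ndufb4 encodes an accessory subunit of the membrane arm of complex I. Its level in CPM (counts scaled to library size by TMM) was 38.0, 33.9, and 37.0 for AAV5-Gfp and 19.6, 25.02, and 28.5 for AAV5-V1+V2, in each case for replicates 1, 2, and 3 in that order, as in all lists of 3 values below. The groups did not overlap, and AAV5-V1+V2 replicate 1 was the lowest library. The mean went from 36.3 ± 2.12 to 24.4 ± 4.47 CPM (SD, n = 3 per group, as for every mean below), a log2 fold change of -0.57 ± 0.13 (SE) or 32.8% less (adjusted p = 0.0335).

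Ndufv2 and Ndufv3 belong to the module that takes electrons from NADH, Ndufv2 as a core subunit with an iron-sulfur cluster and Ndufv3 as an accessory one. Ndufv2 had 88.6, 81.3, and 88.1 CPM in AAV5-Gfp and 63.2, 72.4, and 74.7 CPM in AAV5-V1+V2, a log2 fold change of -0.30 ± 0.08 (adjusted p = 0.0494). Ndufv3 had 64.1, 62.7, and 64.8 CPM and then 46.1, 55.2, and 53.3 CPM, a log2 fold change of -0.31 ± 0.08 (adjusted p = 0.0427). Neither gene overlapped between groups. Ndufv1, the flavin-binding partner of Ndufv2, had a log2 fold change of -0.13 ± 0.09 and did not pass the test (adjusted p = 0.311).

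Ndufa12, an accessory subunit of the matrix arm, had 30.8, 29.0, and 32.9 CPM in AAV5-Gfp and 21.9, 25.3, and 26.2 CPM in AAV5-V1+V2. Its log2 fold change was -0.34 ± 0.09 (adjusted p = 0.0493), again with no overlap. A near-identical copy in the genome, Gm15920, had at most 3 counts in any library, against 722 to 1028 for Ndufa12.

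Some members of complex I, which holds 36 of the 81 tested, lay just outside the threshold, as did Cox6b1 and Atp5e of other complexes. Ndufa5 (-0.32, adjusted p = 0.0545), Ndufs6 (-0.25, 0.0549), Ndufb8 (-0.28, 0.0570), and Ndufa13 (-0.28, 0.0656) had negative log2 fold changes that did not pass, with no overlap between groups. Just inside it lay Ndufa12, Ndufv2, and Cox5b, between 0.0493 and 0.0494, so that the number of members called depends on a narrow range of p. At the other end, Ndufa2 (0.06), Ndufs4 (0.02), and Ndufc1 (0.01) were the members of complex I above 0, and all had overlapping groups. Among the members named here, Ndufa13, Ndufs6, Ndufa2, Uqcrb, Atp5a1, and Cox6a2 overlap a gene on the opposite strand and Ndufb8 one on its own strand, and the use of strand in counting is not given in the sources used here. Per kb of transcript, the most abundant gene with a complex I name was Ndufa4, at 247 CPM per kb in AAV5-Gfp and 217 in AAV5-V1+V2. Its log2 fold change of -0.19 ± 0.09 did not pass the test (adjusted p = 0.203), although its libraries did not overlap, with 118, 113, and 110 CPM against 86.4, 108, and 106 CPM.

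Complex II, succinate dehydrogenase, is also an enzyme of the citric acid cycle and is encoded by the nucleus alone. None of its 4 genes was called by edgeR, DESeq2, or limma-voom, 1 was lower and 0 were higher at an unadjusted p under 0.05, and the median log2 fold change was -0.07. Sdhb, the iron-sulfur subunit, had 83.6, 82.3, and 83.2 CPM in AAV5-Gfp and 68.1, 75.3, and 76.5 CPM in AAV5-V1+V2, a log2 fold change of -0.18 ± 0.07 (adjusted p = 0.102). Sdhc, a membrane anchor, was on the other side of 0, with 36.1, 38.1, and 34.6 CPM and then 39.7, 43.9, and 38.7 CPM, a log2 fold change of 0.17 ± 0.08 (adjusted p = 0.165). Neither gene overlapped between groups, and neither passed the test. Sdha and Sdhd overlapped between groups. Without AAV5-V1+V2 replicate 1 the median of complex II was -0.0007.

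Complex III had 8 genes, all tested and all with a log2 fold change below 0, with a median of -0.14. edgeR called 0 of them, with 1 lower and 0 higher at an unadjusted p under 0.05, DESeq2 called 1 lower, and limma-voom called 0. The gene with the smallest p was Uqcr11, which encodes a small accessory subunit. It had 62.6, 55.7, and 61.7 CPM in AAV5-Gfp and 42.7, 52.4, and 50.9 CPM in AAV5-V1+V2, a log2 fold change of -0.30 ± 0.09 with no overlap (adjusted p = 0.0693). Uqcrb, which takes part in ubiquinone binding, had a log2 fold change of -0.25 ± 0.11 (adjusted p = 0.162), and Uqcrh, the hinge subunit and the most abundant per kb at 183 CPM per kb in AAV5-Gfp, one of -0.13 ± 0.08 (adjusted p = 0.287). In both, the groups overlapped. The Rieske subunit Uqcrfs1 and the small subunit Uqcrq were nearest to 0, at -0.04 and -0.02.

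Complex IV, cytochrome c oxidase, had 16 genes tested, with a median log2 fold change of -0.23, and 14 of them were below 0. The median was -0.15 over the 12 genes with a mean of at least 1 CPM, -0.13 without AAV5-Gfp replicate 2, and -0.12 without AAV5-V1+V2 replicate 1. Of these 16, 2 fell and 0 rose with edgeR, 3 fell and 0 rose with DESeq2, and 0 passed with limma-voom (4 lower at an unadjusted p under 0.05). The share that fell with edgeR was 12.5%, against 5.27% of all genes. Both called genes encode subunits around the mitochondrially encoded core. Cox5b had 120, 109, and 113 CPM in AAV5-Gfp and 76.1, 91.7, and 97.6 CPM in AAV5-V1+V2, a log2 fold change of -0.37 ± 0.10 or 22.4% less (adjusted p = 0.0494). Cox6a1 had 111, 107, and 116 CPM and then 83.5, 94.96, and 96.0 CPM, a log2 fold change of -0.28 ± 0.08 (adjusted p = 0.0462). The groups were apart in both genes. Cox5b has a copy, Gm11273, that matches it over 390 bases at 99.23% identity, but this copy had only 7 to 22 counts, against 2503 to 3879 for Cox5b.

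**Figure D2:**
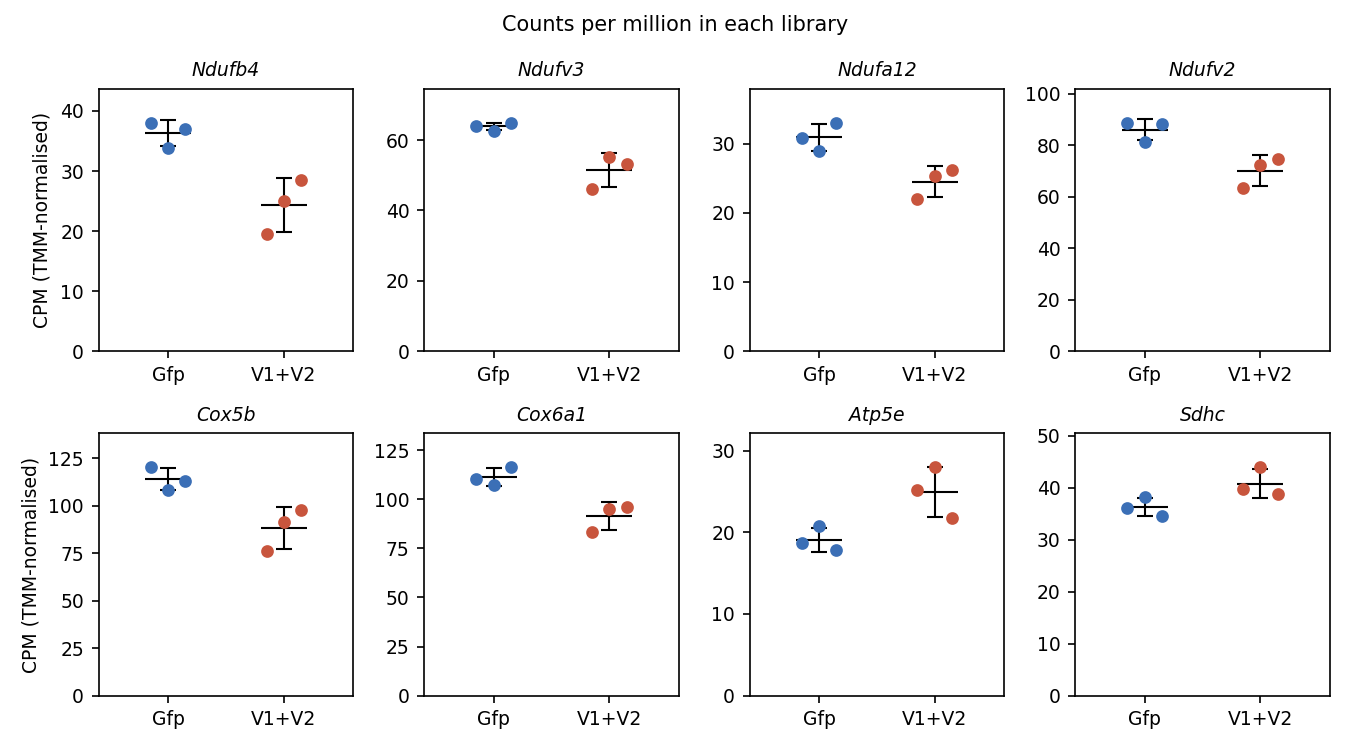
Level of 8 members in each library (vertical axis, TMM-normalised CPM from 0) for AAV5-Gfp (blue) and AAV5-V1+V2 (red); each point is a library in replicate order, and bars are the mean ± SD (n = 3). In the 6 called members the red points lie below the blue ones, and in Atp5e and Sdhc, which were not called, they lie above.

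Several subunits of complex IV exist as isoforms, one used in most tissues and others in striated muscle, testis, or lung. In these DRGs the general form made up nearly all of the expression. Of the CPM of each pair, Cox4i2 made up 0.553 to 0.826%, Cox7b2 0.71 to 1.23%, Cox6b2 0.951 to 1.94%, and Cox7a1 2.06 to 3.12% in the 6 libraries. Cox8c had 1 count in AAV5-Gfp replicate 2 and 0 in all others, and it was the only member that did not pass the filter on low counts. Among the general forms, Cox6b1, which faces the intermembrane space, was the most abundant per kb, at 258 CPM per kb in AAV5-Gfp and 208 in AAV5-V1+V2. It had 127, 119, and 130 CPM against 89.3, 103, and 111 CPM without overlap, with a log2 fold change of -0.31 ± 0.09 that did not pass the test (adjusted p = 0.0584). Cox8a (-0.17, adjusted p = 0.112), Cox7a2 (-0.13, 0.293), Cox4i1 (-0.10, 0.395), and Cox7b (-0.26, 0.263) did not pass either. Cox6b2, the testis isoform, had 1.46, 1.47, and 1.25 CPM against 1.55, 2.04, and 1.66 CPM (log2 fold change 0.33 ± 0.19, adjusted p = 0.256), while Cox4i2 (-0.21) and Cox7b2 (-0.25) overlapped between groups. With a least squares offset for transcript length, the sign of Cox6b2 turned (-0.11), and with outlier-resistant offsets for length and GC content its log2 fold change was 0.27.

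The lowest fold changes in the whole set belonged to the striated muscle isoforms Cox6a2 and Cox8b, and these had the largest errors. Cox6a2 had 3, 47, and 23 counts in AAV5-Gfp and 27, 7, and 4 counts in AAV5-V1+V2, a log2 fold change of -0.94 ± 0.90 (adjusted p = 0.487). Cox8b had 7, 30, and 14 counts and then 16, 8, and 5 counts, a log2 fold change of -0.82 ± 0.60 (adjusted p = 0.364). In both genes the groups overlapped, and the library with the highest count was AAV5-Gfp replicate 2. Cox7a1, a further striated muscle isoform, had 49, 70, and 69 counts against 57, 48, and 48 (-0.33 ± 0.21, adjusted p = 0.293).

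Skeletal muscle genes moved with these isoforms from library to library. The summed level of 20 muscle markers, such as Acta1, Ckm, and Myh4, was 123, 1411, and 598 CPM for AAV5-Gfp and 456, 205, and 61.1 CPM for AAV5-V1+V2. The 3 libraries with the highest muscle sums (AAV5-Gfp replicates 2 and 3 and AAV5-V1+V2 replicate 1) were also the 3 with the highest Cox6a2, Cox8b, and Cox7a1. All 20 markers had a log2 fold change below 0, with a median of -1.50, and 1 was called lower (5%, against 5.27% of all genes). Without AAV5-Gfp replicate 2, 16 were below 0 and the median was -0.44. The part of muscle RNA in the values of the isoforms was not tested. Leaving out the members under 5 CPM, among them these isoforms, left 75 members with a median of -0.13 and the same 6 lower calls.

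**Figure D3:**
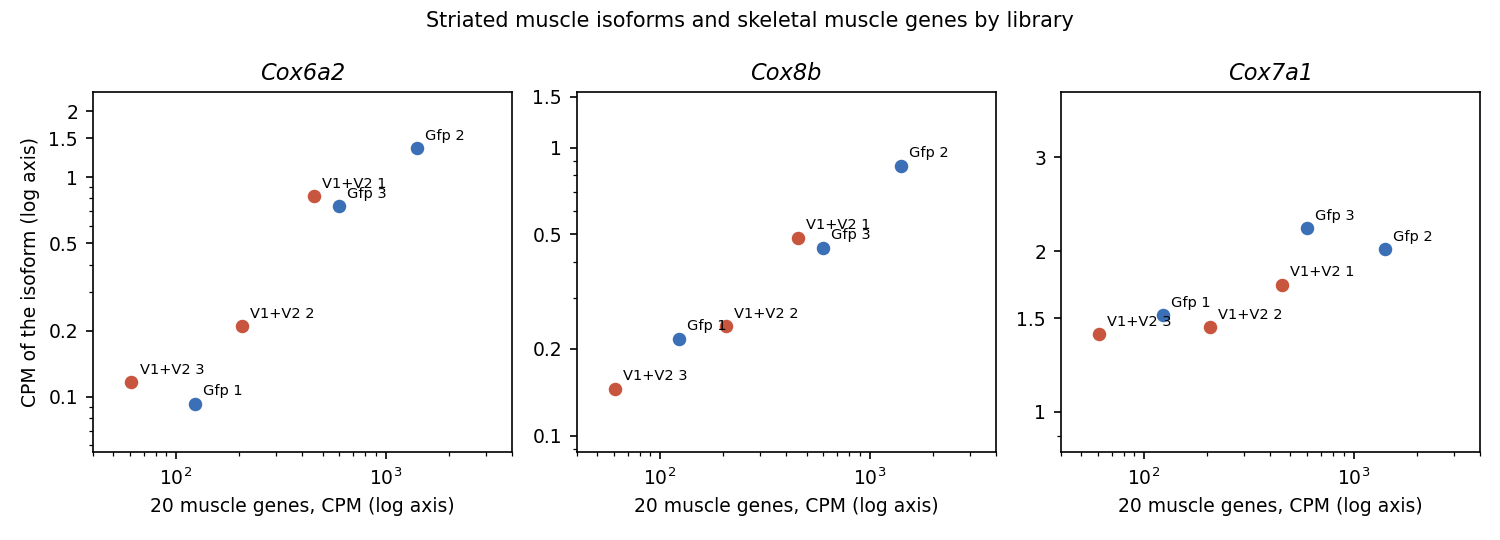
CPM of Cox6a2, Cox8b, and Cox7a1 (vertical axes, logarithmic) against the summed CPM of 20 skeletal muscle genes (horizontal axes, logarithmic), 1 point per library, for AAV5-Gfp (blue) and AAV5-V1+V2 (red). The highest muscle sum, 1411 CPM in AAV5-Gfp replicate 2, goes with the highest Cox6a2 and Cox8b, and both colours occur at low and high values.

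Complex V, the ATP synthase, had 17 genes, all tested, of which 14 were below 0, with a median of -0.13. edgeR called 0, with 5 lower and 1 higher at an unadjusted p under 0.05, DESeq2 called 0 lower and 1 higher, and limma-voom called 0. The most abundant members per kb were both here. Atp5o, which encodes the OSCP subunit that joins the peripheral stalk to the catalytic head, was at 408 CPM per kb in AAV5-Gfp and 366 in AAV5-V1+V2, and Atp5b, the catalytic beta subunit, at 355 and 307. Atp5o had 213, 216, and 221 CPM against 186, 193, and 203 CPM, a log2 fold change of -0.16 ± 0.07 without overlap (adjusted p = 0.139). It overlaps a gene on the same strand, Donson, over 287 bases in the annotation, so reads there could not be told apart by strand. The annotation also holds another protein-coding gene named Atp5o, which overlaps it over 243 bases on the same strand. The length used for Atp5o, 530 bases, is from a single entry, so its level per kb and its rank are uncertain. Atp5s, a coupling factor outside the core enzyme, had 11.7, 11.4, and 11.4 CPM against 8.84, 10.003, and 9.59 CPM (-0.28 ± 0.09, adjusted p = 0.0811).

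Atp5e had the largest positive value of complex V. It encodes the epsilon subunit of the central stalk of the catalytic head, and its level was 18.7, 20.7, and 17.8 CPM in AAV5-Gfp and 25.2, 27.9, and 21.7 CPM in AAV5-V1+V2. No libraries overlapped, and the log2 fold change was 0.39 ± 0.11 or 30.6% more, also the highest of all members and just outside the threshold (adjusted p = 0.0563). It passed the threshold in 4 of 21 alternatives, and with a least squares offset for transcript length its sign turned (-0.08), while with outlier-resistant offsets for length and GC content it was 0.33. Its partners in the head, Atp5a1 (-0.13), Atp5b (-0.21), Atp5c1 (-0.14), and Atp5d (-0.17), all had negative log2 fold changes that did not pass.

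The c subunit of the rotor ring is made by Atp5g1, Atp5g2, and Atp5g3, which encode the same mature protein. None passed the test, with log2 fold changes of -0.05 ± 0.23, 0.08 ± 0.06, and -0.04 ± 0.08. Atp5g1 had by far the largest spread, with 2540, 1680, and 1735 counts in AAV5-Gfp and 1426, 2472, and 2028 in AAV5-V1+V2. Its near-identical copy Gm10039 (99.76% identity over 411 bases) had 508, 1029, and 868 counts and then 576, 337, and 630. In AAV5-Gfp the order of the copy over the libraries was the reverse of that of Atp5g1. As the copy made up between 12% and 38% of the sum of both, the value of Atp5g1 alone is uncertain. The sums of 3048, 2709, and 2603 counts against 2002, 2809, and 2658 had a narrower spread in AAV5-Gfp, and the log2 fold change of the sum was -0.20 (adjusted p = 0.309). The sign of Atp5g1 alone turned to positive with scaling by total counts, as did that of Atp5g3.

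By library, the members were close together in AAV5-Gfp and spread in AAV5-V1+V2. The median deviation of the members from the AAV5-Gfp mean, in log2 CPM, was 0.02, -0.02, and -0.01 for AAV5-Gfp and -0.26, -0.09, and -0.08 for AAV5-V1+V2. AAV5-V1+V2 replicate 1 was the lowest in each complex. The summed level of all 82 members was 5822, 5636, and 5708 CPM in AAV5-Gfp and 4585, 5342, and 5380 CPM in AAV5-V1+V2, a mean of 5722 ± 94.2 against 5102 ± 448 CPM. The groups did not overlap in this sum, nor in those of complexes I, III, IV, and V, while those of complex II did. As a percentage of raw counts, without TMM, all members together did overlap. This share was 0.546 to 0.573% in AAV5-Gfp and 0.471 to 0.550% in AAV5-V1+V2. Without AAV5-V1+V2 replicate 1, 64 of 81 members were still below 0, with a median of -0.08, and the medians of complexes I, II, III, and V were -0.09, -0.000733, -0.06, and -0.06.

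**Figure D4:**
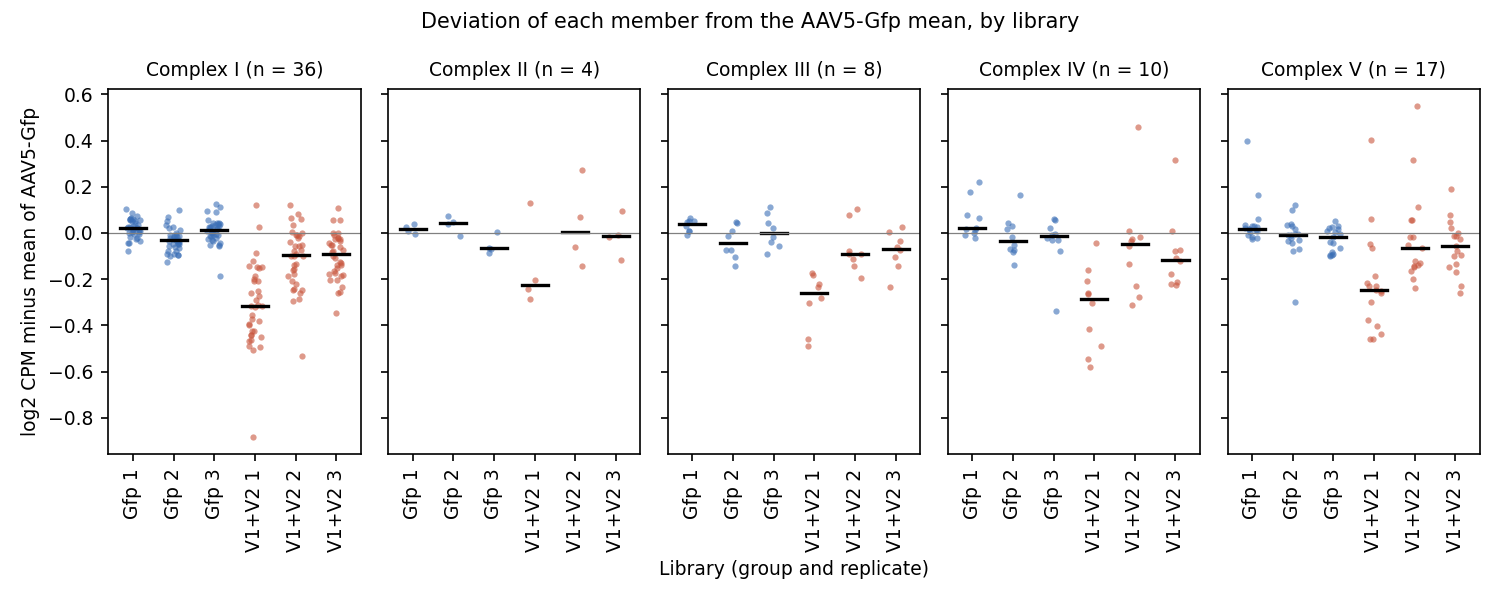
Deviation of each member from its AAV5-Gfp mean (vertical axis, log2 CPM) in each library (horizontal axis), for members with a mean of at least 5 CPM in each complex; points are genes and black bars are medians. The AAV5-Gfp medians (blue) lie near 0, and AAV5-V1+V2 replicate 1 has the lowest median in each complex.

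RNA of cell type markers moved with the same libraries. Of 20 neuron markers, all were below 0 and 3 fell (10 with DESeq2, 3 with limma-voom, and 12 lower at an unadjusted p under 0.05), with a median log2 fold change of -0.40. Without AAV5-V1+V2 replicate 1, 10 fell and the median was -0.23, and 0 fell without any one of the AAV5-Gfp libraries or without AAV5-V1+V2 replicate 2. Their summed level was 13336, 12746, and 13879 CPM in AAV5-Gfp and 8111, 11108, and 11695 CPM in AAV5-V1+V2, lowest in replicate 1. Of 12 macrophage markers, 10 rose, with sums of 294, 287, and 209 CPM and then 1769, 925, and 626 CPM, highest in replicate 1, and of 12 markers of B and T cells 11 rose. Without AAV5-Gfp replicate 1, 2, or 3, the macrophage markers that rose were 4, 0, and 0, and those of B and T cells 12, 1, and 1. Leaving out an AAV5-V1+V2 library gave 9 to 11 and 11. Over all genes, edgeR called 5.27% lower and 10.1% higher. The summed levels were 12.8 ± 6.32 and 286 ± 61.8 CPM for the markers of B and T cells. Of 10 Schwann cell markers 0 were called (DESeq2 called 1 higher, limma-voom 0, and 2 were higher at an unadjusted p under 0.05), and of 8 satellite glial markers 1 rose. In bulk tissue, fewer cells of a type and less RNA per cell cannot be told apart, and the part of these shifts in the values of the members was not tested. Of the other marker lists, 3 of 8 fibroblast genes rose, 1 of 8 endothelial genes fell and 1 rose, and none of 8 adipocyte or 7 erythrocyte genes was called by edgeR (1 adipocyte gene lower and 2 erythrocyte genes higher at an unadjusted p under 0.05, and with DESeq2 0 and 1).

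Of the 13 subunits encoded in the mitochondria, 10 had a log2 fold change below 0. Of these 13 genes 1 fell and 0 rose with edgeR, 9 fell with DESeq2, and 1 with limma-voom. Over all genes, 5.27%, 4.86%, and 4.53% were called lower by these tools in that order, the DESeq2 share being over 30615 unfiltered genes. With edgeR, 0 fell without any one of the AAV5-Gfp libraries or without AAV5-V1+V2 replicate 2, and 5 fell without AAV5-V1+V2 replicate 3. In 10 of 13 the groups did not overlap, all lower (22% of all genes), and the median log2 fold change was -0.33. mt-Nd6, a complex I subunit encoded on the light strand, had 57.2, 61.6, and 71.5 CPM in AAV5-Gfp and 49.7, 45.8, and 51.2 CPM in AAV5-V1+V2 (-0.38 ± 0.10, adjusted p = 0.0407). mt-Atp6 (-0.40 ± 0.11, adjusted p = 0.0526) and mt-Nd2 (-0.35 ± 0.10, adjusted p = 0.0606) lay just outside the threshold. The median deviation of the 13 genes was lowest in AAV5-V1+V2 replicate 2 (-0.45), with -0.34 in replicate 1 and -0.21 in replicate 3, whereas the nuclear members were lowest in replicate 1. mt-Nd3, mt-Co2, and mt-Co3 were above 0 with overlapping groups and the widest errors, for example 450, 228, and 705 CPM against 774, 429, and 646 CPM for mt-Co3.

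**Figure D5:**
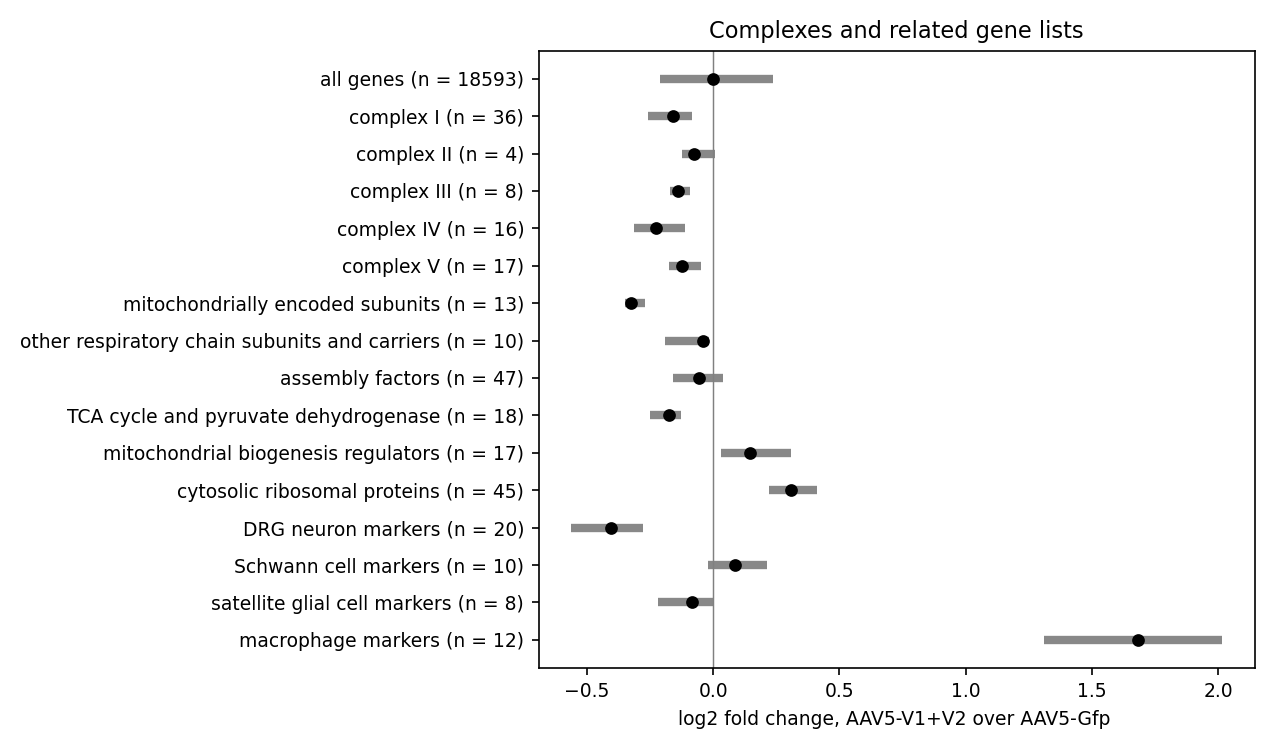
Log2 fold change (horizontal axis, AAV5-V1+V2 over AAV5-Gfp) of all genes tested, of the 5 complexes, and of related gene lists; dots are medians, bars run from the lower to the upper quartile, and n is the number tested. The complexes, the mitochondrially encoded subunits, the citric acid cycle, and the neuron markers lie below 0, and the ribosomal proteins and macrophage markers above.

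Of 47 assembly factors tested, which build the complexes but are not part of them, 0 were called by edgeR, DESeq2, or limma-voom (5 lower and 0 higher at an unadjusted p under 0.05), and the median was -0.06. The share lower at an unadjusted p was 10.6%, against 15.5% of all genes. In 12 of the 47 (25.5%) every AAV5-V1+V2 library lay below every AAV5-Gfp library, near the 22% of all genes. Those with the smallest p were Ndufaf2 (-0.26 ± 0.09, adjusted p = 0.0929), Uqcc1 (-0.15 ± 0.06, 0.122), and Atpaf1 (-0.20 ± 0.08, 0.123), each without overlap. Of 10 further subunits and carriers tested, 0 were called by any of these tools (3 lower and 0 higher at an unadjusted p under 0.05), with a median of -0.04. The carrier cytochrome c (Cycs) had 97.5, 95.4, and 99.7 CPM against 72.5, 88.3, and 90.3 CPM (-0.22 ± 0.09, adjusted p = 0.135). Usmg5, a small protein of the ATP synthase membrane part, was at -0.25 ± 0.09 (adjusted p = 0.108), and Coq7, an enzyme of ubiquinone synthesis, at -0.33 ± 0.11 (adjusted p = 0.0853). With scaling by total counts, the medians of the assembly factors and of the further subunits were at 0 or above (5.11e-05 and 0.02).

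The citric acid cycle and pyruvate dehydrogenase, which feed the chain with electrons, were covered by 18 genes. Of these, 0 were called by edgeR and limma-voom, and 2 were called lower by DESeq2 (4.86% of 30615 unfiltered genes). At an unadjusted p under 0.05, 7 were lower (38.9%, against 15.5% of all genes) and 1 was higher (19.2% of all genes). The median log2 fold change was -0.18. In 11 (61.1%) every AAV5-V1+V2 library lay below every AAV5-Gfp library, and in 1 every one lay above. Over all genes these shares were 22% and 23.4%. Idh3a (-0.28 ± 0.09, adjusted p = 0.0707) and Idh3g (-0.24 ± 0.08, adjusted p = 0.0717), subunits of the NAD-dependent isocitrate dehydrogenase, were alike in size, and neither overlapped.

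Regulators of mitochondrial gene expression moved in both directions, with 2 of 17 lower, 3 higher, and a median of 0.15. Over all genes, 5.27% were called lower and 10.1% higher. Without any one of the AAV5-Gfp libraries, 0 regulators were called in either direction. Leaving out AAV5-V1+V2 replicate 2 gave 0 lower and 1 higher. Esrrg, a nuclear receptor of the estrogen-related family, had 70.7, 74.0, and 84.7 CPM in AAV5-Gfp and 38.9, 46.6, and 55.5 CPM in AAV5-V1+V2, a log2 fold change of -0.70 ± 0.13 (adjusted p = 0.0218). Ppargc1a, the coactivator PGC-1α, had 48.5, 49.3, and 54.9 CPM against 31.3, 35.7, and 40.02 CPM (-0.51 ± 0.10, adjusted p = 0.0235). Both fell without overlap and were lowest in AAV5-V1+V2 replicate 1, as the members were. Gabpb2, a beta subunit of the GABP factor, rose from 32.3, 32.8, and 29.99 CPM to 53.3, 43.0, and 41.3 CPM (0.53 ± 0.11, adjusted p = 0.0235). Also higher were Polg, the mitochondrial DNA polymerase (0.31 ± 0.07, adjusted p = 0.0350), and Pprc1, a coactivator related to PGC-1α (0.36 ± 0.10, adjusted p = 0.0495). Nrf1 was at 0.14 ± 0.11 with overlapping groups (adjusted p = 0.385), and Gabpa at 0.18 ± 0.06 without overlap (adjusted p = 0.0849). Ndufv1, Ndufa2, Ndufs4, Ndufc1, Uqcrfs1, Uqcrq, the other subunits of the catalytic head, Nrf1, Gabpa, Polg, Pprc1, and the variable mitochondrial genes were named for their role or place after their values were seen. Likewise, Ndufa5, Ndufs6, Ndufb8, and Ndufa13 were named because their adjusted p lay close to the threshold.

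Ribosomal protein genes, which also give short and abundant mRNAs, went the other way. All 45 tested had a log2 fold change above 0, with a median of 0.31, and 18 rose while 0 fell (28 rose with DESeq2 and 14 with limma-voom, 0 fell with either or at an unadjusted p under 0.05). With edgeR, 0 rose without any one of the AAV5-Gfp libraries, 1 without AAV5-V1+V2 replicate 2, and 27 without AAV5-V1+V2 replicate 3. With least squares offsets for length and GC content, 11 of the 45 were below 0, 6 rose, 3 fell, and the median was 0.18, whereas with offsets from the outlier-resistant fit 1 was below 0, 18 rose, 0 fell, and the median was 0.31. Rps12 rose from 14.6, 12.6, and 11.95 CPM to 28.5, 21.7, and 20.3 CPM (0.85 ± 0.15, adjusted p = 0.0174), and Rps20 (0.45 ± 0.08, adjusted p = 0.0193) and Rpl3 (0.59 ± 0.11, adjusted p = 0.0223) rose as well. By transcript length, all genes under 500 bases had a median of 0.18 (546 genes) and those of 500 to 1000 bases one of -0.01 (1834 genes). The 13 and 42 members in these ranges had medians of -0.16 and -0.16. With offsets for transcript length and GC content, the number of members called lower was 38 by a least squares fit of the offsets (6.38% of all genes) and 8 by a fit that gives outlying genes less weight (5.02%).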

How the data were processed

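RNA was taken from DRGs with RNeasy columns and made into stranded total RNA libraries. What the authors deposited were read counts by gene symbol, in whole numbers and not normalized, in a table with 1 column per library. The processing notes name GRCm38/mm10, and the aligner, counter, and annotation are not given in the sources used here. Here genes were filtered with filterByExpr by group, scaled by TMM, and tested with edgeR 4.0.16 (glmQLFit, glmQLFTest, R 4.3.3), with no covariate. Calls had a Benjamini-Hochberg adjusted p under 0.05 over 18593 genes. The standard error was the absolute log2 fold change divided by the square root of F. Log2 CPM used a prior count of 2. Levels per kb used the median length of the protein-coding transcripts in GENCODE M21, which held 81 of 82 members (not Atp5sl). Genes at least 95% identical over at least 200 aligned bases were counted as copies, and 21 members had one. No libraries were duplicates (chi-square per degree of freedom 8.83 to 52.8 within groups). At this depth a count of 3 was taken as the floor, for counting error only.

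The members and lists were chosen with earlier results of these data known. Genes were named by complex: up to 5 called members with the smallest p, or the 2 with the smallest p where none was called, the most abundant member per kb, all tissue isoforms of a subunit, members that failed the filter, and 3 genes of each pathway list. Alternatives were RLE, upper quartile, and total count scaling, TMM without mitochondrial genes, other filters, DESeq2 1.42.0, limma-voom 3.58.1, a robust fit, a replicate block, offsets for length and GC content (known for 96.4% of genes tested and 98.8% of members), and leaving out each library. Offsets for length or GC content alone, offsets from an outlier-resistant fit, and the sum of Atp5g1 and Gm10039 were added after the data were seen.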

Additional observations from a re-analysis of the deposited data

How the results depend on the processing

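The number of members called lower, 6, was 1 with total counts, 3 without a filter, 2 with limma-voom, 11 with DESeq2, 38 with length and GC offsets, 37 with a length offset alone, 24 at an unadjusted p, and 0 to 11 when 1 library was left out. The number called higher, 0, was 1 with total counts, DESeq2, and an unadjusted p, and 0 to 1 when 1 library was left out. The median of -0.144 became -0.308 with length and GC offsets and -0.314 with a length offset alone, and stayed between -0.168 and -0.0845 when 1 library was left out. The outlier-resistant fit of the same offsets gave 8 lower calls and a median of -0.179. These causes were not tested, except that leaving out a library also leaves fewer samples.

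Across genes, deviations of same-numbered libraries had correlations of 0.036, 0.0658, and 0.107, and those of different-numbered libraries ran from -0.104 to 0.0433. These small values do not decide whether replicate numbers pair the libraries. With a replicate block, 6 members were called lower and 1 higher. Lower calls over all genes went from 980 to 1341, and higher ones from 1872 to 2118. The block called 8 of 13 mitochondrially encoded subunits lower and 1 higher, and 8 of 20 neuron markers lower.

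Of 47 named genes over 22 alternatives, 875 values kept their direction and side of the threshold, 71 lost the call, 73 gained one, and 11 turned. Those that turned were Atp5e (-0.105 with length and GC offsets, -0.0762 with length alone), Cox6b2 (-0.128 and -0.108), and Atp5g2 (-0.201 and -0.188), Atp5g1 (0.0104 with total counts, 0.179 without AAV5-Gfp replicate 1, 0.135 without AAV5-V1+V2 replicate 1, and -0.239 to 0.179 over all libraries left out in turn), and Atp5g3 (0.0141 with total counts, 0.0265 without AAV5-V1+V2 replicate 1, and -0.0851 to 0.0265 over all libraries left out in turn). Of 21 alternatives, the call held in 17 for Ndufb4, 16 for Ndufv3, 13 for Cox5b, Cox6a1, and Ndufa12, and 11 for Ndufv2. Cox6a2 and Cox8b had few counts and varied widely between libraries of near-equal depth.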
